A study of Mus musculus with 7 samples.

Results

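The genes described here are 7 transcription factor genes of head and body muscle, *Pitx1*, *Msc*, *Lhx2*, *Myf5*, *Myf6*, *Myod1* and *Myog*, of 21000 protein-coding genes with a curated start site. They were chosen by name. For each gene, all deposited ATAC-seq peaks from 50 kb upstream to 50 kb downstream of the gene body on GRCm38 were collected, and *Myf5* and *Myf6*, which lie side by side, were treated as 1 neighbourhood, giving 6 neighbourhoods of 661 kb in all. ATAC-seq uses a transposase that inserts adapters into accessible DNA, so that reads pile up over open chromatin. Each library held between 103 and 119 peaks in the neighbourhoods, of 187914 to 291287 peaks in its list.

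The study compared chromatin of sorted progenitor cells of the second heart field (SHF), the mesoderm behind the heart tube that adds cells to its poles. Cells were dissected from the SHF region of pooled E9.5 mouse embryos. GFP+ cells carried the *Hoxb1GFP* allele and were sorted for GFP, a mark of *Hoxb1*-expressing cells of the posterior SHF (2 libraries, replicates 3 and 4). The methods also list this allele as *Hoxb1*-, a loss of function, and whether the embryos carried 1 or 2 copies was not stated in the sources used here. Tomato+ cells came from *Mef2c-Cre;RosatdT* embryos, in which Cre is driven by the anterior heart field element of *Mef2c* and switches on tdTomato for good, so the label marks descent and not current expression (2 libraries, replicates 6 and 8). The peak file of Tomato+ replicate 6 carries a run name with the letters YFP, which does not match the tdTomato label, and the comparisons of counts and densities are also given without it. GFP- cells (2 libraries, replicates 1 and 2) and Tomato- cells (1 library, replicate 7) were the sort-negative cells of the same lines and were not further defined. As GFP+ and Tomato+ cells came from different lines, an effect of the line cannot be told apart from one of the population. The labels do not say whether libraries of a group came from separate pools of embryos, so the spread between them may be technical.

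Muscle of the head and jaw arises from pharyngeal mesoderm, which borders on the SHF and shares with it regulators such as *Tbx1* and *Isl1*. *Pitx1* encodes a homeodomain factor of the first pharyngeal arch and hindlimb, *Msc* (musculin, MyoR) a basic helix-loop-helix (bHLH) repressor that acts with *Tcf21* in jaw muscle, and *Lhx2* a LIM-homeodomain factor of pharyngeal mesoderm, eye and forebrain. *Myf5*, *Myf6* (Mrf4) and *Myod1* encode the bHLH determination factors that commit cells to skeletal muscle, and *Myog* (myogenin) encodes the bHLH factor of terminal differentiation. These factors bind E-boxes (CANNTG) as dimers with E proteins.

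The peak lists rested on an estimated 52340120 to 93074895 tags per library, and 64306 to 77746 peaks per library had a MACS2 q-value of at most 0.01, here called strong peaks. Other deposited peaks are called weak peaks. Fold enrichment is the caller's ratio of tag pileup to local background at the summit. Since it is not scaled between libraries, peaks were compared by their rank, given as the percent from the top of the library's list (100% where no peak lay in the window). This rank depends on the length of the list, which ran from 187914 to 291287 peaks and was longest in GFP+ replicate 3. A peak can rank nearer the top where a list holds more weak peaks. The promoter was the window from 1000 bp upstream to 100 bp downstream of a start site. At the members' promoters the pileup was only 8 to 52 tags, so a peak present in some libraries and missing in others was often near the limit of detection. Of the promoters of 7 posterior SHF markers, *Aldh1a2* and *Wnt2*, for example, ranked higher in both GFP+ than in both Tomato+ libraries and *Foxf1* ranked lower. Of 6 anterior SHF markers, *Fgf8*, *Fgf10* and *Isl1* also ranked higher in GFP+ and none ranked higher in Tomato+, so the anterior markers did not set the Tomato+ libraries apart. Of all 34 cell type markers looked at, which also covered blood and endothelium, neural tissue, neural crest, endoderm and somites, 10 ranked higher in GFP+ and 3 in Tomato+, near the 26.9% and 6.74% of all coding promoters with a peak in these libraries. The 34 include *Gata1* and *Hbb-y*, which had no promoter peak in the GFP+ or Tomato+ libraries. Strong promoter peaks in all 7 libraries, which 53.1% of coding genes had, were found for 3 of 7 posterior and 4 of 6 anterior SHF markers, 1 of 6 blood and endothelial markers (*Kdr*), 3 of 5 neural markers and none of the 3 neural crest, 3 endoderm and 4 somite markers, and the part of other cell types in the results was not tested. The *Hoxb1* promoter itself ranked at 12.4% and 41.9% in GFP+ and at 79% and 20% in Tomato+, so the groups overlapped. In these bulk libraries, fewer cells with open chromatin at a gene and a less open gene in each cell cannot be told apart.

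*Lhx2* was the member with the most open promoter. It was also the only member with a strong promoter peak in all 7 libraries, which 53.1% of coding genes had. *Lhx2* (chr2:38339271-38369737, plus strand) has a pair of curated start sites about 12 kb apart. At the downstream site, the region chr2:38350783-38351862 has its summit at -282 bp from the start, in an intron of the longer transcript. Its fold enrichment was 5.63 and 6.72 in the GFP+ libraries, 5.33 and 4.64 in the Tomato+ libraries, 4.27 and 3.82 in the GFP- libraries and 5.53 in the Tomato- library. Both GFP+ libraries lay above all others, and both GFP- libraries lay lowest. The GFP+ peaks ranked at 5.20% and 4.96%, the Tomato+ peaks at 6.70% and 10.7%, the GFP- peaks at 13% and 13.4% and the Tomato- peak at 7.81%. At the upstream start site, chr2:38339024-38339941, fold enrichment ran from 3.58 to 4.89 over the libraries, and was higher than at the downstream site in Tomato+ replicate 8 and GFP- replicate 2. There the order of the populations turned, with ranks of 12.9% and 11% in GFP+ and of 10.6% and 9.70% in Tomato+, and GFP- replicate 2 was first at 8.82%. The summit sequence of the downstream site is shown for its density of CpG dinucleotides (22 CpG, RefSeq sequence of GRCm38, chr2:38350951-38351101, plus strand, CpG in capitals):
Lhx2 summit: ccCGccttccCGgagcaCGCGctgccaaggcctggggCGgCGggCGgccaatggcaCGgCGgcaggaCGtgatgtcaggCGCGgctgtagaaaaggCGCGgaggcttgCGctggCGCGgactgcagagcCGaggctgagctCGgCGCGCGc

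*Msc*, *Myod1* and *Myf6* had strong peaks inside the gene more often than in the promoter window. So did *Myf5* (4 libraries against 1) and *Myog* (2 against 0), which are described below. *Msc* (chr1:14753344-14756089, minus strand) had a strong promoter peak in 3 libraries and any promoter peak in 5, but the region chr1:14755092-14756139, with its summit 559 bp into the gene in a coding exon, held a strong peak in all 7. Fold enrichment there was 4.08 and 4.79 in GFP+, 4.18 and 4.31 in Tomato+, 4.48 and 5.73 in GFP-, and 3.20 in Tomato-. The groups overlapped, and the Tomato- library was the lowest. *Myod1* (chr7:46376474-46379092, plus strand) had no strong promoter peak in any library and weak ones in 3. Inside the gene, the region chr7:46376914-46377491 had its summit 695 bp downstream of the start, in coding sequence, with a strong peak in 6 libraries and a weak one in Tomato-. Its fold enrichment was 4.44 and 3.14 in GFP+, 5.81 and 3.33 in Tomato+, 4.86 and 3.68 in GFP-, and 2.64 in Tomato-. The GFP+ and Tomato+ libraries overlapped, and the highest value and one of the lowest belonged to Tomato+. *Myf6* (minus strand of chromosome 10, start at 107494723) was the only member with no promoter peak of any strength in any library. Its intronic region chr10:107493432-107494266, with the summit 1121 bp into the gene, held a strong peak in all libraries but GFP- replicate 1, where it was weak. In the first 1500 bp of the gene, the strongest *Myf6* peak ranked at 8.81% and 13.1% in GFP+, 13.7% and 21.3% in Tomato+, 31.7% and 16.4% in GFP-, and 9.18% in Tomato-, so that both GFP+ libraries lay above both Tomato+ and both GFP- libraries and the Tomato- library lay between the GFP+ values. The window from the end of the promoter window to 1500 bp downstream of the start was added after the positions of these peaks had been seen. Of the 3 members without a strong promoter peak in any library (*Myf6*, *Myod1* and *Myog*; 28.3% of coding genes have none), *Myf6* and *Myod1* had a strong peak in this window in at least 4 libraries, as had 3.43% of all coding genes without a strong promoter peak. The summit sequences of *Myod1* and *Myf6* are shown because they differ in base composition (CpG in capitals, gene strand, RefSeq sequence of GRCm38). *Myod1* (chr7:46377094-46377244, plus strand) held 16 CpG, and *Myf6* (chr10:107493527-107493677, minus strand) held 3 beside a repeated cagca motif and a run of t:
Myod1 coding exon: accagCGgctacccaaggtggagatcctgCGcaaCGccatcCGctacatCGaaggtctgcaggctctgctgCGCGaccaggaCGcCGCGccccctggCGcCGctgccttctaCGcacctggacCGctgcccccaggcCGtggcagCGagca
Myf6 intron: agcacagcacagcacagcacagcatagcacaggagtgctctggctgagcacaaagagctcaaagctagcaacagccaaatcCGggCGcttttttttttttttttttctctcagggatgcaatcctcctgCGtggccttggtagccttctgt

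**Figure D1:**
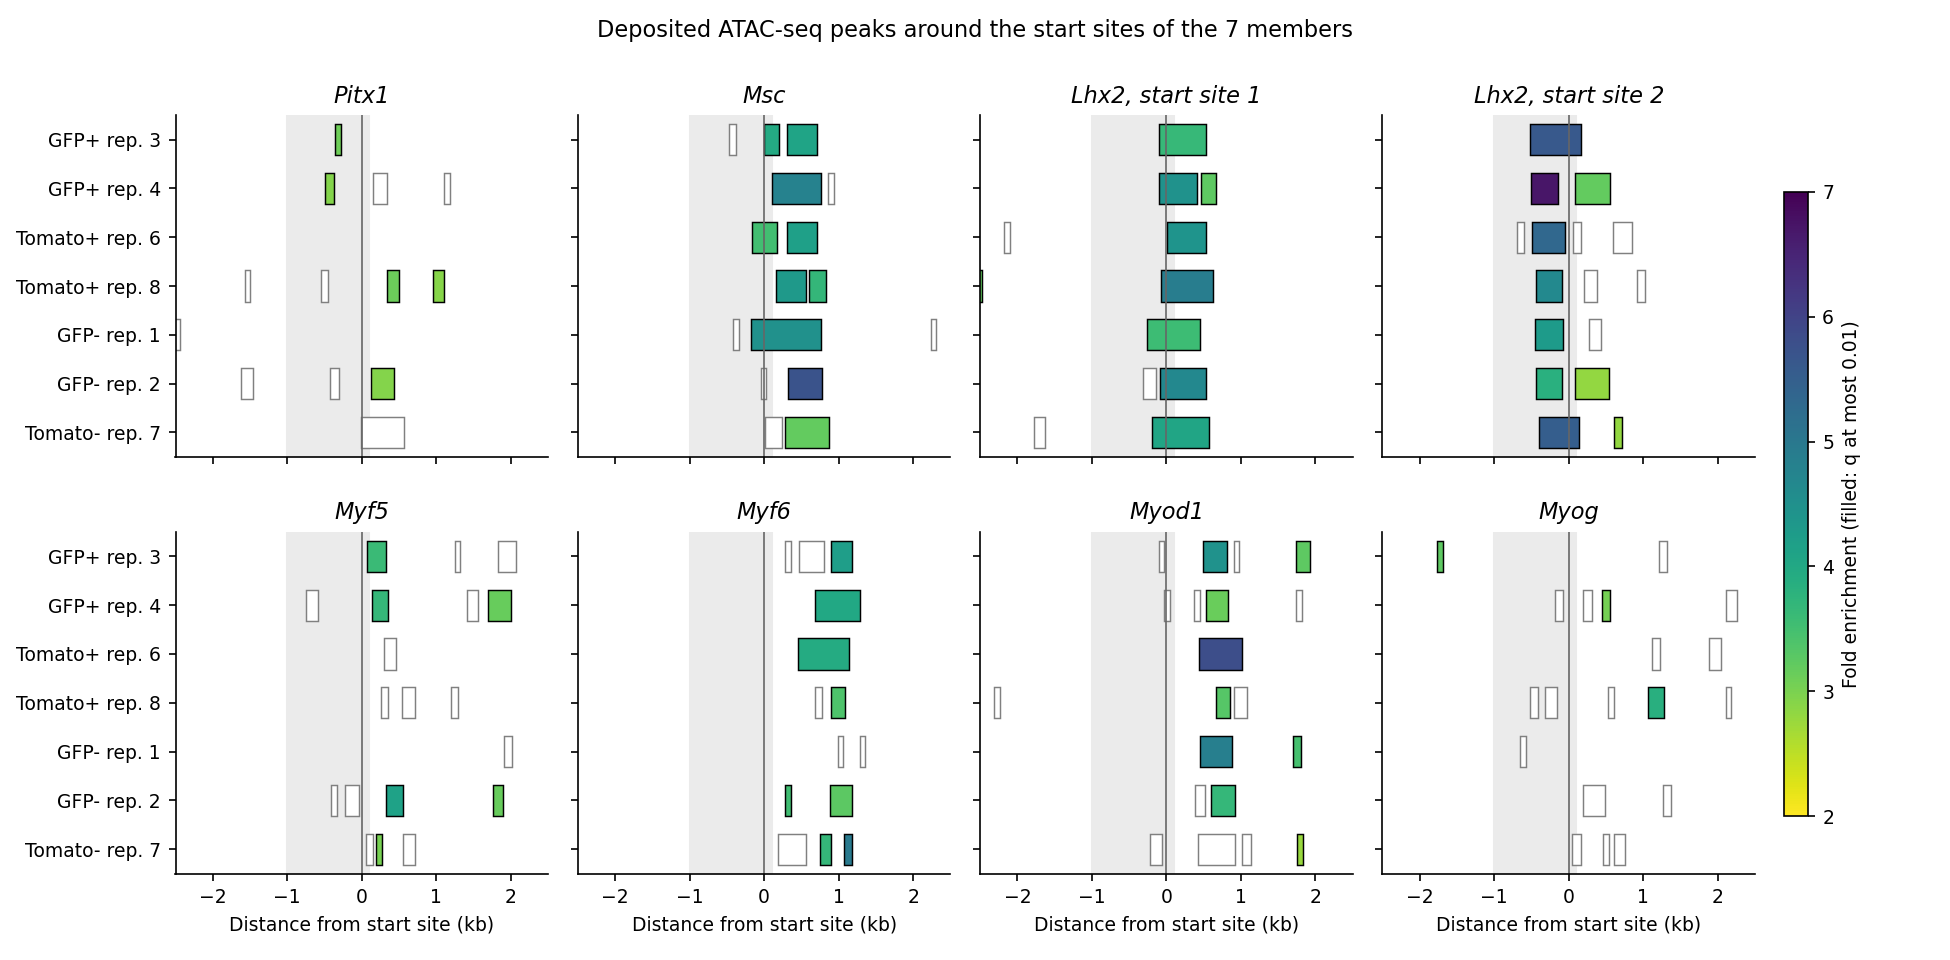
Deposited peaks within 2.5 kb of each start site (horizontal axis, kb) in the 7 libraries (rows). Filled boxes are strong peaks coloured by fold enrichment, open boxes are weak peaks and the grey band is the promoter window. *Lhx2* has filled boxes at both start sites in all 7 libraries, while the filled boxes of *Msc*, *Myf6* and *Myod1* lie mainly to the right of the grey band.

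*Myf5*, *Pitx1* and *Myog* had few strong peaks at their curated starts. *Myf5* (minus strand of chromosome 10, curated start at 107486134) had a strong promoter peak in GFP+ replicate 3 only, with a fold enrichment of 3.61, and weak ones in GFP+ replicate 4, GFP- replicate 2 and Tomato-. That peak began 66 bp downstream of the start, and the region around it in a coding exon, chr10:107485581-107486068, was strong in 4 libraries. Its fold enrichment was 3.61 and 3.66 in GFP+, 3.29 and 3.11 in Tomato+ (both weak), 4.11 in GFP- replicate 2 and 3.02 in Tomato-, with no peak in GFP- replicate 1. Both GFP+ values lay above both Tomato+ values, and the GFP- libraries held the highest value and the only missing peak. *Pitx1* (chr13:55825044-55836190, minus strand, curated start at 55831425) had a strong promoter peak in both GFP+ libraries and in no other. Fold enrichment was 3.11 and 2.93 in GFP+, 2.13 in Tomato+ replicate 8, 2.12 in GFP- replicate 2 and 2.11 in Tomato-, the last 3 weak, and Tomato+ replicate 6 and GFP- replicate 1 had none. The GFP+ summits were at -305 and -452 bp from the start, and those 2 peaks did not share a base. Downstream of the start, the strongest *Pitx1* peaks were strong in Tomato+ replicate 8 and GFP- replicate 2, with summits 463 and 366 bp into the gene. The site closest to being shared among all libraries was an untranslated exon at the far end of the gene, chr13:55825094-55825599, with a peak in all 7 and a strong one in 4. Its fold enrichment was 3.46 and 2.27 in GFP+, 4.50 and 2.45 in Tomato+, 2.48 and 3.46 in GFP- and 2.97 in Tomato-, so that each pair of replicates held a strong and a weak peak. The annotated *Pitx1* gene reaches upstream of the curated start, and only the curated start was scored as a promoter. Near the upstream end, chr13:55835755-55836004 had a peak in 4 libraries, strong in GFP- replicate 2 only (fold enrichment 3.61). Beside it, chr13:55836010-55836383 had a peak in 5, strong in GFP+ replicate 4 only (3.20). Every library had a peak in at least 1 of these regions. *Myog* (chr1:134290004-134292548, plus strand) had no strong promoter peak and weak ones in 4 libraries, with fold enrichments from 1.99 to 2.86. In its first 1500 bp a strong peak was called only in GFP+ replicate 4, at 501 bp, and Tomato+ replicate 8, at 1113 bp. The 150 bases upstream of the *Myog* start are shown because they hold matches to muscle factor motifs in a window without a strong peak (chr1:134289854-134290003, plus strand, GRCm38, matches to CANNTG and to MEF3, a motif of muscle gene promoters, in capitals):
Myog upstream: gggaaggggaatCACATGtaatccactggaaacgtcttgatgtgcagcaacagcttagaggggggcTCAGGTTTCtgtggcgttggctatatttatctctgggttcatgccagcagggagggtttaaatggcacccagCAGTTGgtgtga
The E-box matches began at -138 and -12 bp from the start and the MEF3 match at -84 bp. E-box matches were found in the same window of 43.5% of coding start sites and MEF3 matches in 0.24%. The strict MEF2 consensus searched for had no match in this window. Looser MEF2 sites were not searched for, and the A/T-rich stretch ctatatttat in the sequence above was left unmarked. The window is therefore not shown to lack a MEF2 site.

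Promoter ranks were then compared between the 2 sorted SHF populations. Of the 6 members with a promoter peak in at least 1 GFP+ or Tomato+ library, *Pitx1*, *Lhx2*, *Myf5* and *Myod1* (4 of 6) ranked higher in both GFP+ libraries than in both Tomato+ libraries, against 26.9% of all coding promoters with a peak there. None ranked higher in both Tomato+ libraries, against 6.74% of coding promoters, and leaving out Tomato+ replicate 6 placed *Myog* there. These counts were not tested, since 2 against 2 libraries cannot give a p below 0.333, and only *Lhx2* had strong peaks in all 4 libraries. The *Lhx2* rank took the higher peak of its start sites, which was the upstream one in Tomato+ replicate 8. At the upstream start site alone the order was the opposite, with 10.6% and 9.70% in Tomato+ and 12.9% and 11% in GFP+. At *Pitx1* the mean rank was 32.7% in GFP+ and 97.8% in Tomato+ and at *Myf5* it was 28.9% and 100%. At *Myod1* it was 88.3% and 100%, where all peaks were weak. These differences depended on the window. With 500 bp on either side of the start, the difference shrank from -65.1 to -31.5 percentage points at *Pitx1* and from -71.1 to -19.5 at *Myf5*, and the members ranked higher in both GFP+ libraries were *Msc*, *Lhx2* and *Myf5*. With the window extended to 1500 bp downstream, chosen after seeing the data, the 4 members were *Msc*, *Lhx2*, *Myf5* and *Myf6*, the differences at *Pitx1* and *Myf5* were -31.5 and -11.9, and that at *Myod1* turned to 3.04 percentage points in favour of Tomato+. No member had all 4 sort-positive libraries ranked above all 3 sort-negative ones (3.75% of coding promoters did) or below them (0.739% did).

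The neighbourhoods as a whole did not separate the populations. Over the 6 neighbourhoods there were 31 and 32 strong peaks in GFP+, 24 and 30 in Tomato+, 31 and 36 in GFP- and 34 in Tomato-. Per 10000 strong peaks of the library this was 4.4 ± 0.153 in GFP+ (SD, n = 2) and 4.02 ± 0.913 in Tomato+ (SD, n = 2), a difference of 0.377 (two-sided exact permutation test, p = 1, BH-adjusted p = 1, smallest possible p = 0.333). Sort-positive libraries held 4.21 ± 0.577 (SD, n = 4) and sort-negative libraries 4.75 ± 0.375 (SD, n = 3), a difference of -0.545 (two-sided exact permutation test, p = 0.229, BH-adjusted p = 0.457, smallest possible p = 0.0571). The p-values were adjusted over these 2 tests, and neither design could reach 0.05. The first difference was -0.269 without Tomato+ replicate 6 and 1.02 without Tomato+ replicate 8. The second was -0.267 without Tomato+ replicate 6, -0.36 without GFP- replicate 2 and -0.0799 with flanks of 25 kb.

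The *Myf5*/*Myf6* neighbourhood was the poorest in strong peaks. It held 1 to 4 strong peaks per library, with 2 and 3 in GFP+, 1 and 1 in Tomato+, 1 and 4 in GFP- and 3 in Tomato-. Of all coding genes, between 9.65% and 40.6% had a lower density of strong peaks, depending on the library. The other neighbourhoods ranged from 2 to 6 strong peaks at *Pitx1* to 5 to 10 at *Lhx2*. At *Lhx2*, GFP+ replicate 3 held 5 and GFP+ replicate 4 held 10, which spans the whole range over the libraries. When strong peaks of all libraries were merged, all 5 regions of the *Myf5*/*Myf6* neighbourhood lay within the span of the 2 genes, and none lay in the 50 kb on either side, where 1 to 9 weak peaks were deposited per library. Such empty flanks were found at 2.87% of coding genes, and the median coding gene had 13 regions in its flanks. The span from -8 to -5 kb of the *Myf5* start, where an epaxial somite enhancer of *Myf5* is known, held a strong peak in 6 libraries, but it overlaps *Myf6*. All those strong peaks lay in the intronic *Myf6* region described above, and the rest of the span held none. The known arch and limb enhancers of *Myf5* lie farther upstream, and the part of their span within reach held weak peaks in 3 libraries and no strong one.

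**Figure D2:**
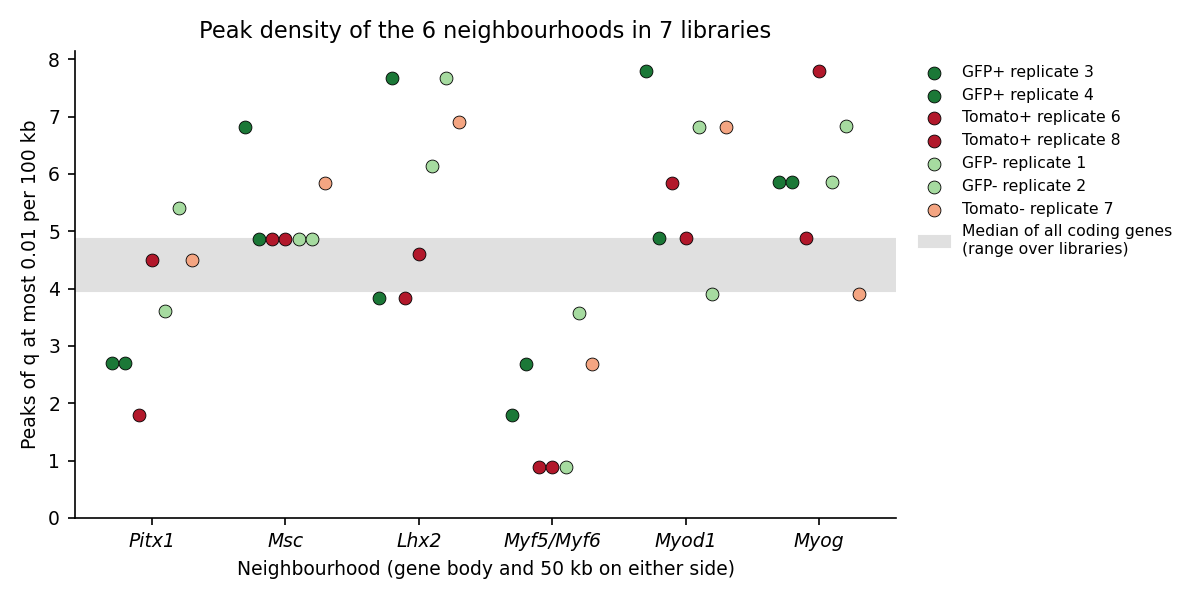
Strong peaks per 100 kb (vertical axis) in each neighbourhood (horizontal axis), 1 point per library in the order of the legend, with the range over libraries of the median coding gene in grey. All *Myf5*/*Myf6* points lie below the grey band, and in every other neighbourhood at least 1 library lies above it.

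*Myod1* and *Myog* each lay in a neighbourhood with distal regions strong in all libraries, none of them at the enhancers known for *Myod1*. At *Myod1* there was 1 such region, and it lay at the start of another gene, *Kcnc1*. The core enhancer of *Myod1*, searched from -26 to -18 kb, had a strong peak in Tomato- alone (fold enrichment 3.02) and weak or no peaks elsewhere, and the distal regulatory region, from -7 to -4 kb, had weak peaks in 5 libraries and no strong one. Just beyond the core enhancer, at -27.5 kb, chr7:46348767-46349174 had a peak in every library, and a strong one in 5, with fold enrichments of 3.49 and 3.95 in GFP+, 2.18 and 3.72 in Tomato+, 3.26 and 3.56 in GFP- and 2.41 in Tomato-. The weak ones were Tomato+ replicate 6 and Tomato-. The nearest region to *Myog* that was strong in all libraries on its upstream side was at -45.6 kb, at chr1:134244146-134244635. Its fold enrichment was 5.60 and 5.82 in GFP+, 4.74 and 3.96 in Tomato+, 4.83 and 5.91 in GFP- and 3.58 in Tomato-, so every library of the *Hoxb1GFP* line lay above every library of the *Mef2c-Cre;RosatdT* line in fold enrichment, while their ranks overlapped. Its summit sequence is shown because a match to the consensus of CTCF, the factor that anchors chromatin loops, begins at -36 bp from the summit (chr1:134244340-134244490, plus strand, GRCm38, match in capitals, which reads as the consensus on the minus strand). CTCF matches were within 200 bp of the summit in 2.81% of all merged regions:
Myog upstream region: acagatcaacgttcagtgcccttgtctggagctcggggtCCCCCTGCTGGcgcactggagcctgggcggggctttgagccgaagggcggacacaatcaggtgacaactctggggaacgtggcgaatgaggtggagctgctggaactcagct
The 2 other regions strong in all libraries near *Myog*, 9.17 and 13.6 kb downstream, lie in an intron and a coding exon of *Ppfia4*.

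In all, strong peaks of the 7 libraries merged into 95 regions in the neighbourhoods, of 210347 in the genome. Among them, 9 (9.47%) were strong in all libraries and 62 (65.3%) in 1 library only, close to the 11.2% and 65.8% of all regions. *Msc* and *Myog* had 3 each of the shared regions, *Lhx2* 2 and *Myod1* 1, and *Pitx1* and *Myf5*/*Myf6* had none. No region was strong in both GFP+ libraries without any peak in either Tomato+ library (0.518% of all regions were), and none was strong in both Tomato+ libraries without any peak in either GFP+ library (0.397% were). With 95 regions, such shares would come to less than 1 region each. These counts rest on the replicates: 7 regions counted as Tomato+ only without Tomato+ replicate 6 and 3 without Tomato+ replicate 8, and 6 as GFP+ only without GFP+ replicate 3 and 8 without GFP+ replicate 4.

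The head muscle regulators *Pitx1* and *Lhx2* had distal regions that were strong in 4 of the 7 libraries at most. At *Pitx1*, 13 of 20 regions lay in the flanks and 16 were strong in 1 library only. The most frequent of the flank regions, chr13:55847760-55848300 at -16.6 kb, had a fold enrichment of 2.71 (weak) and 3.29 in GFP+, 3.97 and no peak in Tomato+, 3.25 and 2.66 (weak) in GFP- and 3.40 in Tomato-. At *Lhx2*, 19 of 25 regions lay in the flanks. Downstream of the gene, chr2:38375871-38376233 had a fold enrichment of 2.28 (weak) and 3.56 in GFP+, 3.36 and 3.15 in Tomato+, 2.33 and 2.77 (both weak) in GFP- and 3.88 in Tomato-. Both Tomato+ libraries and the Tomato- library had a strong peak there, as had GFP+ replicate 4, and neither GFP- library did. Farther downstream, chr2:38379024-38379629 had 3.68 and no peak in GFP+, 2.52 (weak) and 3.45 in Tomato+, 2.85 and 3.62 in GFP- and 1.97 (weak) in Tomato-, and the populations overlapped. In a coding exon of *Lhx2*, chr2:38368873-38369117 had its highest fold enrichment, 5.76, in Tomato+ replicate 6 and 2.27 (weak) in Tomato+ replicate 8, while both GFP+ libraries had strong peaks of 3.35 and 3.34.

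**Figure D3:**
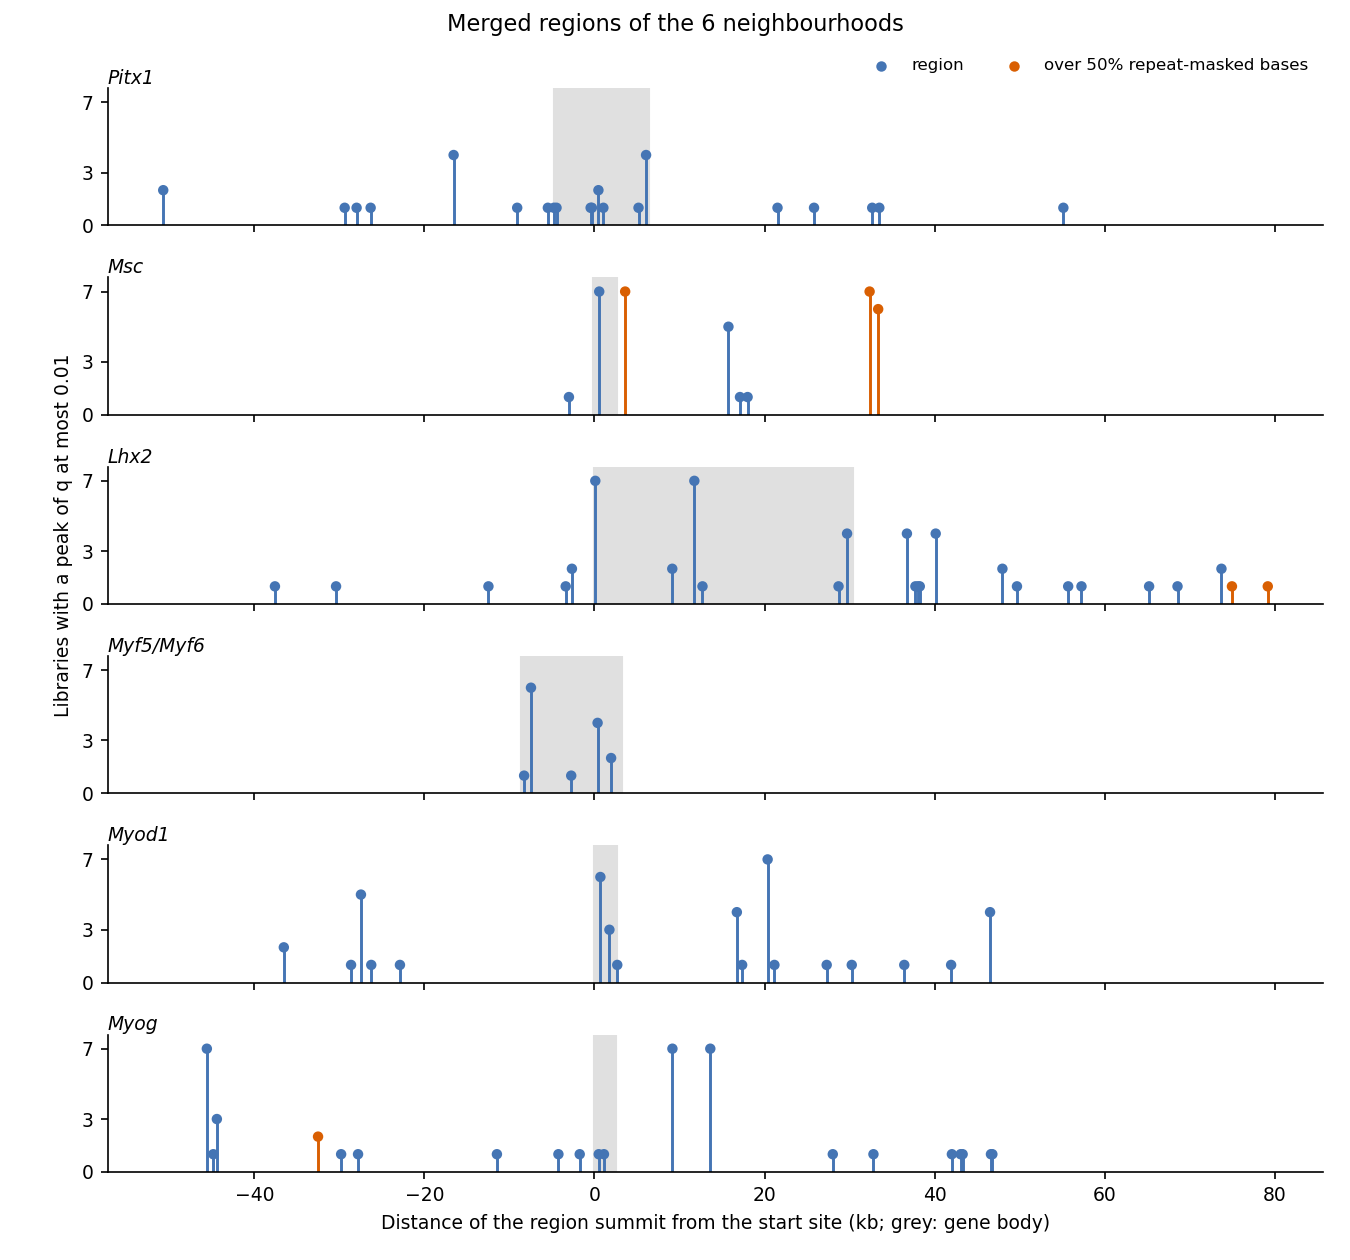
Merged regions by distance of their summit from the start site (kb, in the direction of transcription; the upstream start site for *Lhx2* and the *Myf5* start for *Myf5*/*Myf6*) and the number of libraries with a strong peak (height). Regions with over 50% repeat-masked bases are orange and gene bodies are grey. The *Myf5*/*Myf6* regions all fall on the gene bodies, and 3 of the tallest *Msc* regions are orange.

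The highest peaks of any member neighbourhood were beside *Msc*, and they lay in repeated sequence. The region chr1:14723327-14723717, 32.4 kb downstream of the *Msc* start, had a fold enrichment of 9.34 and 9.51 in GFP+, 6.57 and 12.5 in Tomato+, 11.1 and 10.04 in GFP- and 9.06 in Tomato-, and ranked in the top 1.31% to 4.04% of every list. The region chr1:14752286-14752416, 3.61 kb downstream of the start, had 12.1 and 6.33 in GFP+, 7.92 and 9.33 in Tomato+, 9.45 and 8.21 in GFP- and 8.31 in Tomato-. At the first region the Tomato+ libraries were the lowest and the highest of the 7, and at the second the GFP+ libraries were. Both regions, and chr1:14722522-14722644 at 33.4 kb with a strong peak in 6 libraries, were repeat-masked over their whole length in the RefSeq sequence. Every 31-base word of the region at 3.61 kb occurred more than once in the assembled genome, with a median of 2829 copies, and 52.4% and 54.8% of the words did so at 32.4 and 33.4 kb. Among all regions strong in all libraries, 36.1% were mostly repeat-masked, and among those with a fold enrichment of at least 10 in some library 54.7% were. The part of multiply mapped reads in these peaks was not tested. Sequences of the 3 regions are shown because the first 2 share a run of 49 bases, which is as long as the tags (plus strand of GRCm38, chr1:14723481-14723581, plus strand, chr1:14722544-14722644, plus strand and chr1:14752308-14752408, plus strand, shared run in capitals):
Msc downstream 32.4 kb: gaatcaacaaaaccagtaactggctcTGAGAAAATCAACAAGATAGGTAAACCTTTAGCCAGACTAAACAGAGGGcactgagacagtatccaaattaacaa
Msc downstream 33.4 kb: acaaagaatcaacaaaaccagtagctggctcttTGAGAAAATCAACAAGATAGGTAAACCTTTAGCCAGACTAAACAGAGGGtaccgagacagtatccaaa
Msc downstream 3.61 kb: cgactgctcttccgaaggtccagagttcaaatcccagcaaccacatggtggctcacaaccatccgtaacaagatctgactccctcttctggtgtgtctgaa
Without mostly repeat-masked regions, a choice made after seeing the data, 7 of the 9 shared regions were left, 1 of them at *Msc*. The *Msc* neighbourhood also held chr1:14739994-14740291 in unique sequence, 15.8 kb downstream, with strong peaks in 5 libraries, a fold enrichment of 5.72 and 3.50 in GFP+, a weak peak of 2.26 in Tomato+ replicate 8 and no peak in Tomato+ replicate 6. It had 3.78 and 3.53 in GFP- and 4.53 in Tomato-, so both Tomato+ libraries were lowest.

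**Figure D4:**
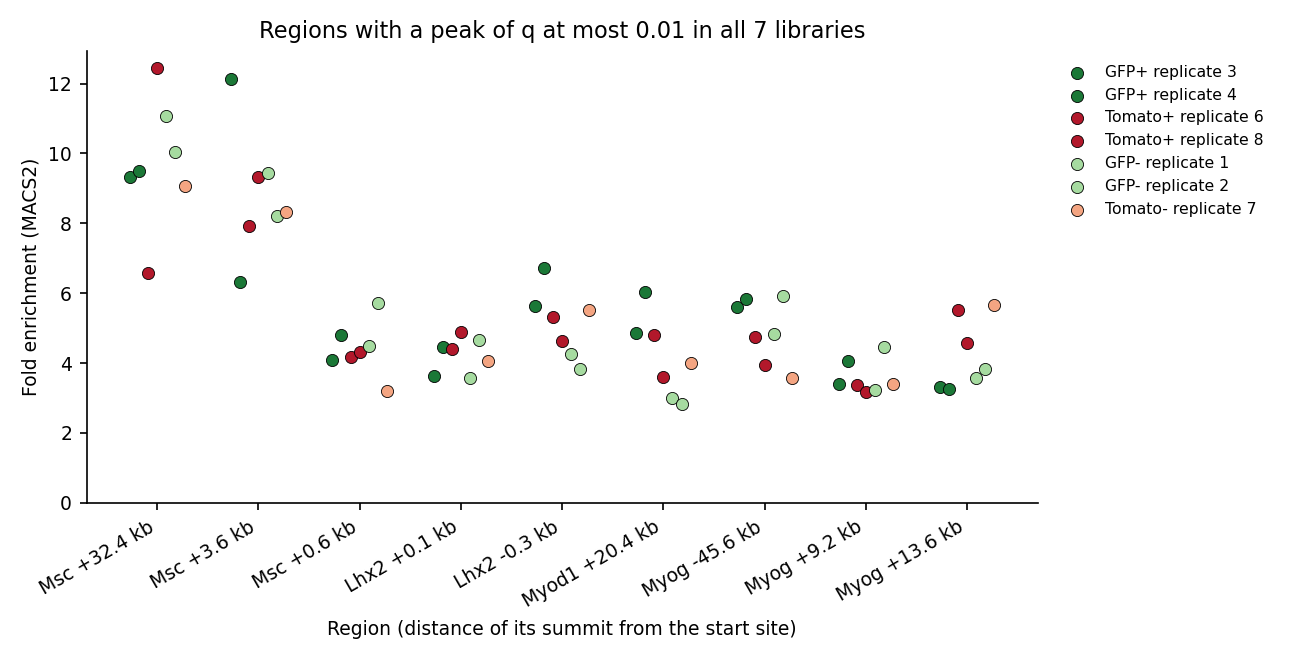
Fold enrichment (vertical axis) of the 9 regions with a strong peak in all libraries, named by the neighbourhood and the distance of the summit from the nearest start site of the member, 1 point per library in the order of the legend. The *Msc* regions at +32.4 and +3.6 kb, both repeat-masked, reach 12.5 and 12.1, and no other region exceeds 6.72.

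The promoters of 5 members held fewer CpG than the median coding start site, and those of *Lhx2* and *Pitx1* held more. CpG observed over expected was 0.237 at *Myog*, 0.256 at *Myf6*, 0.307 at *Myod1*, 0.349 at *Myf5* and 0.381 at *Msc*, with 28.3% of coding start sites lower than *Myog* and 44.2% lower than *Msc*. All 5 fell in the range from 0.2 to 0.4, in which 21.5% of coding start sites had a strong promoter peak in all libraries and 43.3% in none. *Pitx1* had 0.575 and the *Lhx2* sites 0.593 and 0.65. In the range of 0.4 to 0.6, 71.7% of start sites had a strong promoter peak in all libraries and 5.40% in none, and *Pitx1*, with 2 libraries, was among the minority. The first 1500 bp of the gene had a higher ratio than the promoter at every member start site. The ratio there was 0.732 at *Pitx1*, 0.664 at *Msc*, 0.637 at *Myod1*, 0.607 and 0.699 at the *Lhx2* sites, and under 0.4 at *Myog* (0.263), *Myf6* (0.309) and *Myf5* (0.374).

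**Figure D5:**
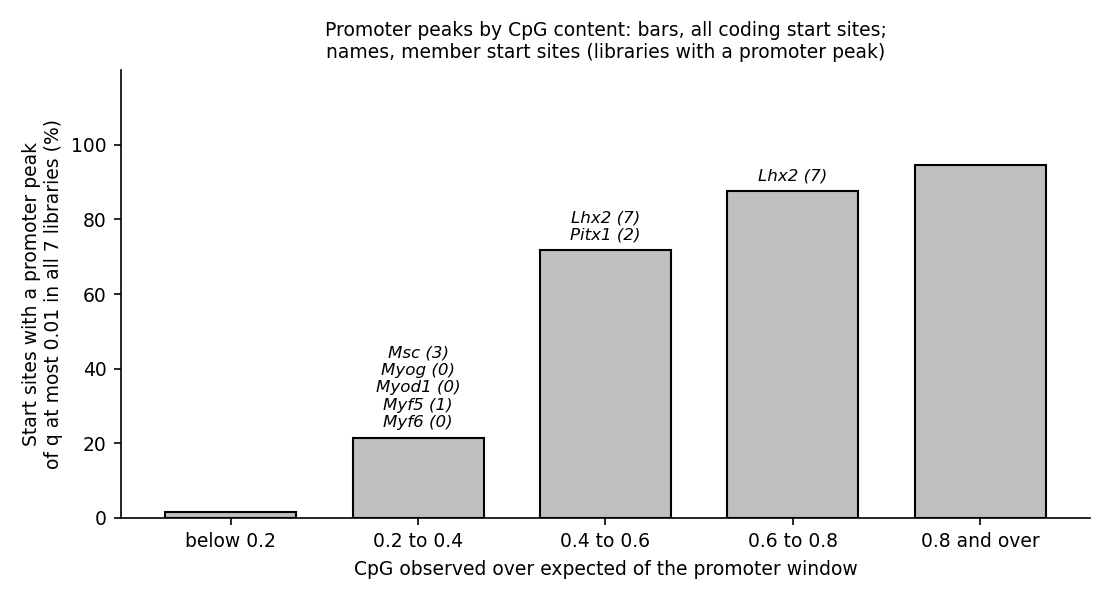
Share of coding start sites with a strong promoter peak in all 7 libraries (bars, %) by CpG observed over expected of the promoter window. Member start sites are written above their bin with the number of libraries that had a strong promoter peak. The share climbs from 1.45% below 0.2 to 94.6% at 0.8 and over. *Pitx1*, scored at its curated start only, is the member with a CpG-rich promoter and few promoter peaks.

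Motifs were looked for within 200 bp of the summit of each merged region, on both strands. CAGCTG, the E-box form preferred by the myogenic factors, was present at 36 of the 95 regions (37.9%) and at 25% of all merged regions. This difference was not tested. The sets differ in repeat content, with 6.32% of the members' regions and 21.5% of all regions mostly repeat-masked. Windows of neighbouring regions can overlap, so that 1 site can be counted more than once. By neighbourhood, the 36 regions were 10 of 20 at *Myog*, 9 of 20 at *Pitx1*, 9 of 17 at *Myod1*, 5 of 25 at *Lhx2*, 3 of 8 at *Msc* and 0 of 5 at *Myf5*/*Myf6*. Any E-box (CANNTG, which includes CAGCTG) was present at 86.3% of the members' regions and 86.9% of all regions. TAATCC, a core of Pitx sites, was at 10.5% of both, TAATTA, a core of LIM-homeodomain sites, at 5.26% and 5.72%, TGGAATG, a Tead site, at 4.21% and 6.27%, and TGATNNAT, a site of Hox and Pbx dimers, at 10.5% and 12.9%. MEF3 (TCAGGTTTC) matched 1 region and the strict MEF2 consensus none, and they matched 0.555% and 0.445% of all regions. Looser MEF2 sites were not counted. A match is a description of the sequence and was not tied to binding.

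The other genes of the muscle pathway are given from lists by role, and were chosen with results of these data known. All 6 dimer or MADS-box partners, the E-protein genes *Tcf3*, *Tcf4* and *Tcf12* and *Mef2a*, *Mef2c* and *Mef2d*, had strong promoter peaks in all 7 libraries, and so had 5 of 6 inhibitors of bHLH factors (*Id1*, *Id2*, *Id3*, *Twist1* and *Hes1*). Of 7 genes upstream of head muscle 4 had them (*Isl1* and *Ebf3* among them), and of 5 genes upstream of trunk and limb muscle only *Six4*. None of 10 muscle effector genes, which include the fusogen genes *Mymk* and *Mymx*, acetylcholine receptor subunits and contractile proteins, had one in all libraries, 4 had none in any, and *Myh3* had no promoter peak of any kind. Over the 34 genes this came to 16 with a strong promoter peak in all libraries, near the 53.1% of all coding genes. Of the 34, 33 had a promoter peak in a GFP+ or Tomato+ library. Among these 33, 6 ranked higher in both GFP+ libraries and 2 in both Tomato+ libraries, against 26.9% and 6.74% of all coding promoters with a peak in these libraries. The median rank difference over the 34 was -0.738 percentage points, against -1.08 over all coding promoters. By the largest difference in each list, *Ebf3* and *Isl1* ranked higher in GFP+ among the head muscle genes (mean rank differences of -8.55 and -5.78 percentage points), *Pax3*, the gene upstream of limb and trunk muscle, ranked higher in Tomato+ (37.5) and *Six4* in GFP+ (-1.76), *Id1* and *Hes1* ranked higher in GFP+ (-5.78 and -0.484), and *Chrnd* ranked higher in GFP+ (-20.7) on weak peaks. No partner gene had non-overlapping ranks. *Tbx1* and *Tcf21*, which act upstream of *Myf5* and *Myod1* in the head, were looked up after their values were seen and had strong promoter peaks in 1 and 2 libraries.

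The coding genes whose promoter ranks followed those of a member most closely over the 7 libraries are given as a description, since the libraries are few and the genes many (15144). They were *Tdgf1* (Pearson r = 0.998), *Col11a2* (0.993) and *Spi1* (0.992) for *Pitx1*, *Wdr45* (0.971), *Ninj2* (0.95) and *Apoa2* (0.946) for *Msc*, and *Pak7* (0.991), *Ppp5c* (0.984) and *Gtf3c3* (0.98) for *Lhx2*. For *Myf5* they were *Brd3* (0.99), *Hmgn1* (0.989) and *Tasp1* (0.986), for *Myod1* *Il23a* (0.996), *Tnks1bp1* (0.989) and *Cldn8* (0.985), and for *Myog* *Spata31d1a* (0.994), *Lime1* (0.988) and *Wdfy4* (0.966). *Myf6* had no promoter peak and so no pattern.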

How the data were processed

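The deposited files were 1 MACS2 peak list for each of 7 ATAC-seq libraries. Per the study's methods, reads were mapped to GRCm38 with SNAP, and the authors kept proper pairs and dropped duplicates, secondary alignments and blacklisted intervals before calling peaks. The study also kept only peaks that were reproducible between replicates by their irreproducible discovery rate. That filter was not applied here, so the lists used here are not the study's reproducible set. Per the labels and methods the caller was MACS2 2.1.1. The only kept header, that of Tomato+ replicate 6, has a run name with the letters YFP and names release 2.1.0.20150731, a p limit of 0.01, a tag size of 49, a shift of 37 bp and an extension to 73 bp, with no control. A positive shift moves tags away from the cut site and can displace summits. The pileup is the deposited coverage signal in tags, the authors' fold enrichment is a ratio to local background, and the deposited -log10 p-values and -log10 q-values hold within a library and grow with depth. Tags per library were computed from the smallest background rate of each list.

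Peaks with several summits were reduced to the summit with the smallest p. Groups followed the sample titles. Start sites were those of curated RefSeq transcripts (GRCm38.p6), which gave the sequences too. Strong peaks (q at most 0.01) were merged by at least 1 bp into regions. Densities were compared by two-sided exact permutation tests in scipy, with Benjamini-Hochberg adjustment over the 2 tests, and all other counts were described beside those of all coding genes or regions. Genes named are the 7 members, the 2 genes of each related list with the largest rank difference among those with non-overlapping ranks, and the 3 genes most correlated with each member. Regions given in full are the members' promoter or gene-start peaks and distal regions strong in all libraries. Regions strong in 4 to 6 libraries were added after their values were seen. The members and lists were chosen with earlier results of these data known. Alternatives were q at most 0.0001, all deposited peaks, flanks of 25 kb, the 30000 peaks with the smallest p, ranking by q or position, a window of 500 bp on either side, 50% overlap and leaving out each library. The gene-start window, the repeat filter, the count of 31-base words and the CTCF motif were added after seeing the data. Some genes of the lists and some sequences are not reported here. Merging, overlap and permutation code was tested on simulated data. The tools were scipy 1.17.1, pandas 2.3.3, numpy 2.4.6, pysam 0.24.0 and matplotlib 3.10.9 under Python 3.11.15.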

Additional observations from a re-analysis of the deposited data

Results flagged for a closer look

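Of 30 values looked at (promoter ranks, gene-start ranks, neighbourhood densities and fold enrichments of shared regions), 5 moved one way in the *Hoxb1GFP* line and the other way in the *Mef2c-Cre;RosatdT* line, with no overlap between sort-positive and sort-negative libraries in either. The share of all coding promoters or regions that move this way was not computed, so the count of 5 is a description only. With 1 Tomato- library, the difference between the lines was not tested. The *Pitx1* promoter ranked 65.3 percentage points nearer the top in GFP+ than in GFP- (mean difference of -65.3 in percent from the top) and 6.43 points farther from it in Tomato+ than in Tomato-, where both values rest on a weak peak or none. The *Myod1* promoter, with weak peaks only, differed by -11.7 points in the first line and 5.77 in the second. The *Myf6* gene start differed by -13.1 and 8.32 points. The strong peaks of the *Myog* neighbourhood differed by -0.122 per 10000 between GFP+ and GFP- and by 0.459 between Tomato+ and Tomato-. The *Lhx2* region at the downstream start site had a fold enrichment 2.13 higher in GFP+ than in GFP-, while Tomato+ minus Tomato- was -0.542.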

How the results depend on the processing

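No paired analysis was made, because the labels do not say which libraries came from the same pool of embryos or the same sort. Of 78 alternative values for the counts and densities, 64 kept their direction and, for counts, their approximate number. Leaving out a sort-negative library could not change the density difference or the promoter counts between GFP+ and Tomato+. Part of the 64 was therefore fixed in advance. The density difference between GFP+ and Tomato+ turned to -0.204 with all deposited peaks and ranged from -0.269 to 1.02 when 1 library was left out, being negative without Tomato+ replicate 6 only, and its p stayed at 0.333 or more. It was 0.845 at q at most 0.0001. The sort-positive minus sort-negative difference stayed negative but shrank to -0.0799 with 25 kb flanks, -0.149 with all deposited peaks, -0.188 with the 30000 top peaks and -0.251 at q at most 0.0001 (exact permutation p from 0.133 to 0.914). Members ranked higher in Tomato+ numbered 0 to 1 with 1 library left out, and those ranked higher in GFP+ numbered 3 to 5 over all alternatives, though not always the same genes. *Pitx1* and *Myod1* were not among them with the window of 500 bp on either side, nor *Myod1* by position from the top. The *Myod1* promoter difference turned to 3.04 with the window to 1500 bp downstream. Regions strong in all libraries numbered 4 at q at most 0.0001 and 16 with all deposited peaks. Regions of GFP+ only numbered 7 with all deposited peaks and 0 to 8 with 1 library left out, and those of Tomato+ only numbered 3 and 0 to 7. Members with a strong gene-start peak in at least 4 libraries numbered 5, and 3 at q at most 0.0001 (*Msc*, *Lhx2* and *Myod1*). The share of all coding genes with such peaks was not computed, so this count is a description only. At *Lhx2* the gene-start peak was the promoter peak itself in GFP+ replicate 3, Tomato+ replicate 8, GFP- replicate 2 and Tomato-. In the other libraries it reached into the promoter window of the upstream start site. The cause of these changes was not tested. The peak lists hold no tags outside peaks, so a missing peak gives no level, and at pileups of 8 to 52 tags a call can be lost with few tags.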

Other observations

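Beside the members, 2 genes of their neighbourhoods had regions strong in all libraries, and these were noticed after the values were seen. At the start of *Kcnc1*, a potassium channel gene 20.4 kb downstream of the *Myod1* start, chr7:46396209-46397161 had a fold enrichment of 4.85 and 6.02 in GFP+, 4.81 and 3.59 in Tomato+, 3.0 and 2.82 in GFP- and 4.0 in Tomato-. Both GFP+ libraries were highest and both GFP- libraries lowest. In a coding exon of *Ppfia4*, 13.6 kb downstream of the *Myog* start, chr1:134303417-134303729 had 3.32 and 3.25 in GFP+, 3.56 and 3.82 in GFP-, 5.52 and 4.59 in Tomato+ and 5.65 in Tomato-. Here all 3 libraries of the *Mef2c-Cre;RosatdT* line lay above all 4 of the *Hoxb1GFP* line, whether sorted positive or negative, and 37.1% of the region was repeat-masked. Neither pattern was tested.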
